A study of Mus musculus with 3 samples.

Results

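Haemoglobin transcripts were followed in 3 droplet-based 3′ single-cell RNA libraries of endothelial cells (EC) sorted from mouse Peyer's patches (PP), the lymphoid follicles in the wall of the small intestine. The 4 genes examined are the adult alpha-globin genes Hba-a1 and Hba-a2 and the adult beta-globin genes Hbb-bs and Hbb-bt, found by symbol among the 31053 genes measured in all 3 libraries. They were chosen by their measured values, since they led a cluster of blood EC in these same data while Hbb-bt was missing from the EC-iCOUPOE cells of that cluster. Their levels are therefore given as a description, with no test. There was 1 control library, labelled WT and C57BL/6, and there were 2 EC-iCOUPOE libraries, labelled replicates 1 and 2, from the strain CDH5(PAC)CreERT2;COUP-TFIIOE/OE. In these mice tamoxifen activates a Cre recombinase driven by the endothelial gene Cdh5, and Cre switches on a transgene for the transcription factor COUP-TFII (Nr2f2). Mice were 6 to 10 weeks old, EC were isolated 14 to 19 days after tamoxifen, and males and females were processed together. The study names both littermates without Cre and WT mice among its controls, and the label of the control library gives WT. The number of mice and the day of isolation of each library, and the strain background of the EC-iCOUPOE mice, are not given in the sources used here, so that genotype, background and library cannot be told apart.

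Haemoglobin carries oxygen in red blood cells and is built from alpha and beta chains, each holding a haem group. Globin RNA is made in erythroid precursors, is the most abundant RNA of reticulocytes, and persists for a time after the nucleus is lost. Alpha globin has also been described in arterial EC, where it acts on nitric oxide signalling together with endothelial nitric oxide synthase (Nos3) and cytochrome b5 reductase (Cyb5r3). The beta-globin cluster of C57BL/6 mice carries Hbb-bs and Hbb-bt, and other strains carry another haplotype, whose genes are named Hbb-b1 and Hbb-b2.

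The members lie in pairs of near copies, and the sequences that separate the copies are shown because they decide what a count of each gene can mean. On GRCm38 (GENCODE vM21) Hba-a1 (ENSMUSG00000069919) spans chr11:32283511-32284465 and Hba-a2 (ENSMUSG00000069917) chr11:32296489-32297298, both on the + strand. Hbb-bs (ENSMUSG00000052305) spans chr7:103826534-103828096 and Hbb-bt (ENSMUSG00000073940) chr7:103812524-103813996, both on the − strand. Each main transcript has 3 exons. The 429 coding bases of Hba-a1 and Hba-a2 differ at 1 base (C381T, Hba-a1 first, counted from 1 at the A of the start codon), the third base of codon 127. The 444 coding bases of Hbb-bs and Hbb-bt also differ at 1 base (C417T, Hbb-bs first), the third base of codon 139. The last 90 coding bases of each gene, 5′ to 3′, hold that base, which is in capitals:
Hba-a1: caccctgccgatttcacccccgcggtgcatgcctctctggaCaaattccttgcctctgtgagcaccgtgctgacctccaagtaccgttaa
Hba-a2: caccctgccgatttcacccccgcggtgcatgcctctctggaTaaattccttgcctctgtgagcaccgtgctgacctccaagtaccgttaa
Hbb-bs: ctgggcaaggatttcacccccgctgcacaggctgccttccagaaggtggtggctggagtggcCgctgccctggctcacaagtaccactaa
Hbb-bt: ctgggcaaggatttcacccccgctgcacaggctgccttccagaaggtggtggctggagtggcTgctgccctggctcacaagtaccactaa

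The pairs differed in the part of the transcript that a 3′ assay reads. Over the 74 bases of 3′ UTR that both alpha transcripts have, all 74 were identical, whereas the 3′ UTRs of the beta transcripts matched at 93 of 129 aligned bases (72.1%). Of the stretches of 98 bases (the length of Read 2) in Hba-a1, 343 of 602 (57.0%) were found unchanged in Hba-a2, and 343 of the 457 in Hba-a2 (75.05%) were found in Hba-a1. In Hbb-bs 333 of 531 such stretches (62.7%) were shared with Hbb-bt, and in Hbb-bt 333 of 606 (54.95%) were shared with Hbb-bs. The division of UMIs between Hba-a1 and Hba-a2 is therefore uncertain, and the reference copies of the beta pair can be separated by their 3′ UTRs. How transcripts of another beta haplotype would be counted was not examined. The background of the EC-iCOUPOE mice is not given, so the Hbb-bt shares of their barcodes below carry this limit.

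The promoters differ in the same way, with 297 of 297 aligned bases identical in the alpha pair and 216 of 294 (73.5%) in the beta pair. The beta promoters are shown because the reference sequences of this pair differ. Those sequences are the same for every barcode, so they do not bear on how the ratio of Hbb-bt to Hbb-bs varied between barcodes. The stretches run from 190 to 71 bases before the RefSeq start site (GRCm38.p6, − strand), and capitals mark CACCC, the kind of site bound by the erythroid factor KLF1, and CCAAT, on either strand. They cover chr7:103827999-103828118 for Hbb-bs and chr7:103813994-103814113 for Hbb-bt:
Hbb-bs: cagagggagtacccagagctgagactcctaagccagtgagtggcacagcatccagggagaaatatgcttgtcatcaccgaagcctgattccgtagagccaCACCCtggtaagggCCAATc
Hbb-bt: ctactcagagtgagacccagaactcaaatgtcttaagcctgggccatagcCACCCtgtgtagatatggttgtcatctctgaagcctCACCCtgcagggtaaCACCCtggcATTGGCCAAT
In the whole windows of 300 bases, Hbb-bs held 1 match to CACCC and 1 to CCAAT, and Hbb-bt held 3 of each, of which a pair of CCAAT matches on opposite strands abut. Each alpha promoter held 2 matches to CACCC and 1 to CCAAT. All 4 held 1 match to ATATAA and 1 to GATAA. Of all 32851 RefSeq promoters of this length, 57.5% held CACCC, 37.4% CCAAT, 9.82% ATATAA and 25.4% GATAA on either strand. These are matches of letters only.

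The control library held 6080 barcodes and 17341398 UMIs, replicate 1 4959 barcodes and 17417260 UMIs, and replicate 2 1441 barcodes and 3548983 UMIs. After filtering on genes, UMIs and mitochondrial share and removal of doublets, 5341, 4704 and 1239 cells remained, of which 2470, 3363 and 976 fell in clusters named blood EC-like from their markers. The labelled cell type was thus mixed with other cells, mostly fibroblast-like cells in the control library (2488) and lymphatic EC-like cells in replicate 1 (922). In the blood EC-like cells Nr2f2, the gene of the transgene, stood at 117 UMIs per 1000000 (CPM) in the control library, 1727 CPM in replicate 1 and 1175 CPM in replicate 2. The control library and replicate 2 shared 12 barcodes, none with a haemoglobin UMI in both, and the other pairs of libraries shared 0. All intervals below are 95% intervals, exact Poisson for counts and Clopper-Pearson for shares, and they cover counting error only.

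Haemoglobin was neither evenly spread nor ordered by genotype. Over all barcodes the 4 genes together stood at 782 CPM (769 to 795) in the control library, at 106 CPM (101 to 111) in EC-iCOUPOE replicate 1 and at 2937 CPM (2881 to 2994) in EC-iCOUPOE replicate 2. The replicates of the same genotype thus lay on either side of the control library. Hbb-bs had the most UMIs of the 4 in every library, with 6476 in the control library, 1305 in replicate 1 and 4330 in replicate 2. Hba-a1 had 3105, 307 and 2739 UMIs, and Hba-a2 had 2794, 206 and 2545, in the same order. Hbb-bt was the lowest in each, with 1186, 29 and 809 UMIs. UMIs of a 3′ assay are counted per transcript end and were not divided by length.

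These totals came from very few barcodes. Of 12480 barcodes 146 held a haemoglobin UMI, 45 in the control library, 26 in replicate 1 and 75 in replicate 2. In 124 of the 146 there were only 1 or 2 such UMIs, and in 8 there were 3 to 36. The remaining 14 barcodes held 398 to 7632 each, and together 25613 of the 25831 haemoglobin UMIs (99.2%). The limit of 100 UMIs used below lies in the gap between 36 and 398 and was placed after these counts were seen.

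**Figure D1:**
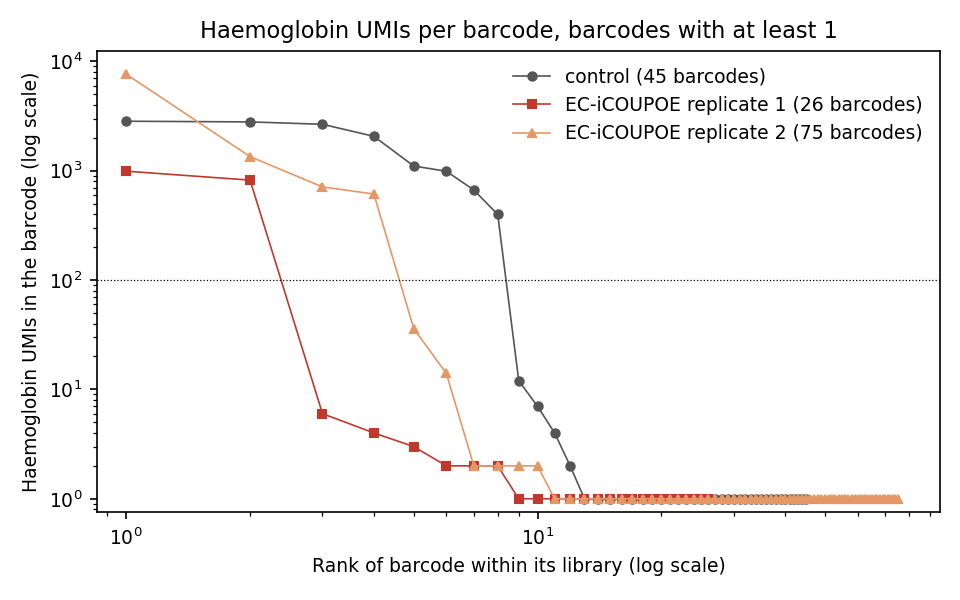
Haemoglobin UMIs in each barcode that held at least 1 (vertical axis, log scale) against the rank of the barcode within its library (horizontal axis, log scale), with 1 point per barcode and a dotted line at 100 UMIs. 8 control, 2 EC-iCOUPOE replicate 1 and 4 EC-iCOUPOE replicate 2 barcodes lie at 398 UMIs or more, and every other barcode lies at 36 or fewer.

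The number of such barcodes and the largest of them set the level of each library. The control library had 8, with 2834, 2794, 2657, 2062, 1103, 989, 666 and 398 haemoglobin UMIs. Replicate 1 had 2, with 990 and 820. Replicate 2 had 4, with 7632, 1345, 711 and 612, and its first held 73.2% of the haemoglobin UMIs of the library. The 3017 UMIs of Hbb-bs in that barcode were the highest count of any gene in any barcode of the 3 libraries. Without it replicate 2 stood at 788 CPM rather than 2937 CPM, and without its first barcode replicate 1 stood at 49.2 CPM rather than 106 CPM. Leaving out each of the 8 control barcodes in turn gave 619 to 759 CPM.

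The 14 barcodes fell into 2 kinds by the number of genes detected. In 8 of them 11 to 74 genes were detected and haemoglobin made up 93.7% to 98.9% of the UMIs. These were 3 control barcodes (49, 57 and 58 genes), 1 of replicate 1 (26 genes) and all 4 of replicate 2 (11, 19, 25 and 74 genes). None held a UMI of any of the 10 blood EC markers, and all failed the filter of 500 genes. They held 7 to 149 UMIs of other genes each, so 0 marker UMIs says little about a single barcode. Their mitochondrial share was 0% to 1.87% of all UMIs, a share that the haemoglobin UMIs lower. Among their 434 UMIs of other genes, mt-Co3 (14 UMIs), mt-Atp6 (13) and mt-Cytb (12) were among the leading genes. Barcodes with so few genes were not always of this kind, since 1 other barcode of replicate 1 and 10 others of replicate 2 had under 100 genes and held 0 haemoglobin UMIs. In the control library all 3 barcodes under 100 genes were haemoglobin barcodes.

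In the other 6 barcodes 533 to 1643 genes were detected, and haemoglobin made up 18.03% to 78.8% of the UMIs. They were 5 barcodes of the control library and 1 of replicate 1, and replicate 2 had none. Their UMIs of other genes numbered 763 to 3727, against medians of 2136, 3097 and 2266 UMIs per blood EC-like cell in the control library, replicate 1 and replicate 2. Each held 2 to 8 of the 10 blood EC markers. Pooled over the 6, these made up 1.08% of the UMIs outside the 4 genes, against 1.15% in the blood EC-like cells with under 100 haemoglobin UMIs. The pooled share does not hold for each barcode. The barcode of replicate 1 gave 55 of the 114 marker UMIs, and the control barcode with 876 UMIs of other genes held 2. All 6 passed the filters and were placed among blood EC-like cells. The filter of 1000 UMIs counts haemoglobin. The control barcodes with 763 and 876 UMIs of other genes passed it only with their haemoglobin UMIs. The 6 fell in several subsets, namely 4 in clusters named capillary-like, 1 in an arterial-like and 1 in a postcapillary venule-like cluster. Scrublet, which compares cells that passed the filters with doublets simulated from those cells, called 0 of these 6 a doublet. The barcodes with few genes failed the filters, so doublets that include them were not simulated. Nothing is read from the 0 calls.

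**Figure D2:**
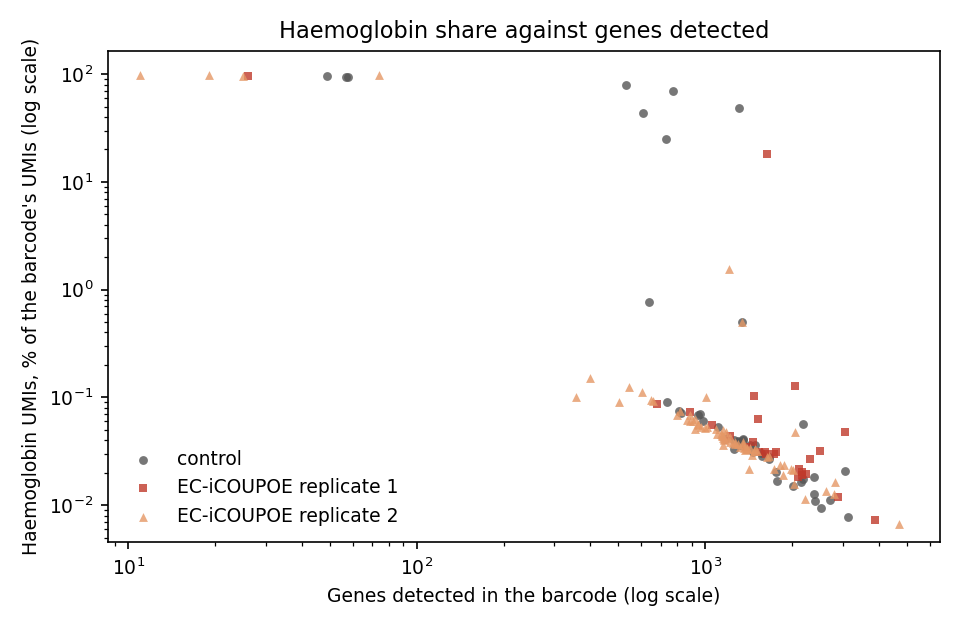
Haemoglobin UMIs as a percentage of all UMIs of the barcode (vertical axis, log scale) against the number of genes detected (horizontal axis, log scale) for the 146 barcodes with a haemoglobin UMI, 1 point each. The 8 barcodes with 11 to 74 genes lie at the top left, the 6 with 533 to 1643 genes lie at 18.03% or above, and all others lie below 2%.

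Hbb-bt and Hbb-bs varied between barcodes in steps that crossed the libraries. Over all barcodes Hbb-bt made up 15.5% (14.7 to 16.3) of beta UMIs in the control library, 2.17% (1.46 to 3.11) in replicate 1 and 15.7% (14.8 to 16.8) in replicate 2. Among kept cells Hbb-bt was 15.8% (14.9 to 16.8), 1.59% (0.766 to 2.91) and 16.7% (8.92 to 27.3) of beta UMIs in the same order, the last from 72 beta UMIs. By library, then, Hbb-bt was scarce in replicate 1 and not in replicate 2 of the same genotype.

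By barcode, low Hbb-bt was found in all 3 libraries. In 9 of the 14 barcodes Hbb-bt made up 12.7% to 19.2% of beta UMIs, and in the other 5 it made up 0.344% to 2.70%, with no barcode between. The 5 low barcodes were 1 of 8 in the control library, both of replicate 1 and 2 of 4 in replicate 2. The low control barcode had 4 UMIs of Hbb-bt and 242 of Hbb-bs (1.63%, 0.445 to 4.11), and the control barcode next above it had 47 and 322 (12.7%, 9.51 to 16.6). In replicate 1 the barcode with 26 genes had 19 UMIs of Hbb-bt and 686 of Hbb-bs (2.70%, 1.63 to 4.18), and the barcode with 1643 genes had 5 and 595 (0.833%, 0.271 to 1.93).

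In replicate 2 both kinds stood side by side. The barcode with 7632 haemoglobin UMIs had 715 UMIs of Hbb-bt and 3017 of Hbb-bs (19.2%, 17.9 to 20.5), and the barcode with 711 had 66 and 300 (18.03%, 14.2 to 22.4). The other 2 had 12 and 660 (1.79%, 0.926 to 3.099) and 1 and 290 (0.344%, 0.00870 to 1.90). Within that library the intervals of the 2 kinds do not overlap. The share for the library rested on its largest barcode, without which it was 6.68% rather than 15.7%. In the control library leaving out each high barcode in turn gave 14.9% to 15.9%, and in replicate 1 it gave 1.59% to 3.27%.

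**Figure D3:**
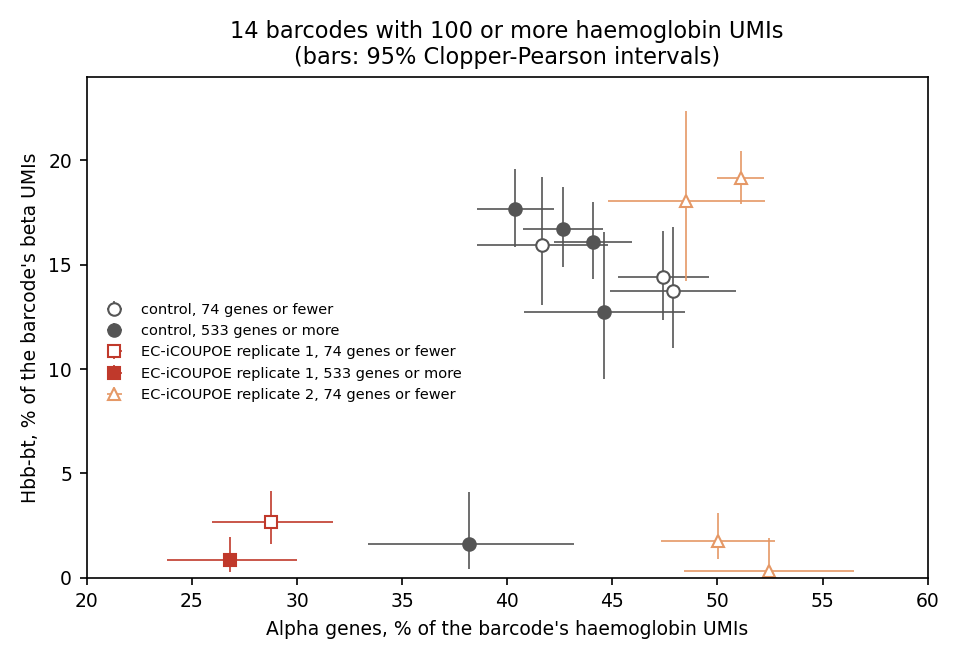
Hbb-bt as a percentage of beta UMIs (vertical axis) against the alpha genes as a percentage of haemoglobin UMIs (horizontal axis, from 20%) for the 14 barcodes with 100 or more haemoglobin UMIs. Bars are 95% Clopper-Pearson intervals, open symbols are barcodes with 74 genes or fewer and filled symbols those with 533 or more. 9 barcodes of the control library and replicate 2 lie at 12.7% Hbb-bt or above, and 5 from all 3 libraries lie at 2.70% or below.

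The balance of alpha and beta genes also differed, and in replicate 2 it was not in step with Hbb-bt. Over all barcodes alpha genes made up 43.5% (42.7 to 44.3) of haemoglobin UMIs in the control library, 27.8% (25.7 to 29.9) in replicate 1 and 50.7% (49.7 to 51.7) in replicate 2. In the kept cells these shares were 42.3% (41.3 to 43.3), 26.5% (23.6 to 29.6) and 37.4% (28.5 to 46.9). The 2 barcodes of replicate 1 had alpha shares of 26.8% (23.8 to 30.003) and 28.8% (26.0 to 31.7). The 8 control barcodes lay between 38.2% (33.4 to 43.2) and 47.9% (44.9 to 50.9), and the 4 of replicate 2 between 48.5% (44.8 to 52.3) and 52.5% (48.4 to 56.5). The barcodes of replicate 1 were thus the lowest of the 14, and their intervals did not reach those of any other. All 4 of replicate 2 had few genes. The median alpha share was 48.2% in few-gene and 41.5% in many-gene barcodes, so library and kind of barcode cannot be told apart for replicate 2.

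Among the 5 barcodes low in Hbb-bt the alpha share ran from 26.8% to 52.5%, the whole range of the 14. In replicate 2 the 2 low barcodes had alpha shares of 50.04% (47.3 to 52.7) and 52.5%, and the 2 others had 51.1% (49.97 to 52.2) and 48.5%, with overlapping intervals. The low control barcode had the lowest alpha share of its library, 38.2% (33.4 to 43.2). Its interval lay below those of the control barcodes with 1103 (44.9 to 50.9) and 2062 haemoglobin UMIs (45.3 to 49.6). It overlapped those of the remaining control barcodes.

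Hba-a1 and Hba-a2 were counted at similar levels. Hba-a2 made up 47.4% (46.1 to 48.6) of alpha UMIs in the control library, 40.2% (35.9 to 44.5) in replicate 1 and 48.2% (46.8 to 49.5) in replicate 2. Over the 14 barcodes it ranged from 36.5% to 52.8%, and the lowest value belonged to the barcode of replicate 1 with 26 genes (181 UMIs of Hba-a1 and 104 of Hba-a2). Since the pair differs at 1 coding base and shares its 3′ UTR, no difference between the 2 genes is read from these counts, and values of either alone below carry this limit.

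Outside the 14 barcodes, haemoglobin was sparse and was found in endothelial and other cells. In barcodes with fewer than 100 haemoglobin UMIs the 4 genes stood at 3.35 CPM (2.54 to 4.33) in the control library, 2.13 CPM (1.496 to 2.93) in replicate 1 and 34.8 CPM (28.9 to 41.5) in replicate 2. Replicate 2, which held the highest haemoglobin total per UMI, was thus also the highest in the remaining barcodes. There, 50 of its 123 haemoglobin UMIs came from 2 barcodes, with 36 and 14. Replicate 1 had the lowest value in both, but in the remaining barcodes its interval overlapped that of the control library. Whether the 2 levels are linked was not tested. At least 1 UMI was found in 0.609% of barcodes under 100 haemoglobin UMIs in the control library, 0.484% in replicate 1 and 4.94% in replicate 2. The beta pair stood in other proportions here than in the high barcodes of replicate 1, where Hbb-bt was 24 of 1305 beta UMIs (1.84%, 1.18 to 2.72) in the high barcodes and 5 of 29 (17.2%, 5.85 to 35.8) outside them. In the control library the same shares were 15.5% (14.7 to 16.3) and 4 of 36 UMIs (11.1%, 3.11 to 26.1), and in replicate 2 they were 15.7% (14.7 to 16.7) and 15 of 78 (19.2%, 11.2 to 29.7).

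To compare classes of cells, each cell was thinned to 1000 UMIs. In the control library 13 of 2470 blood EC-like cells then held a haemoglobin UMI (0.526%, 0.281 to 0.898), against 4 of 2871 other cells (0.139%, 0.0380 to 0.356). Replicate 1 had 7 of 3363 (0.208%, 0.0837 to 0.428) and 0 of 1341, which allows a share of up to 0.224% (3 counts). In replicate 2 there were 24 of 976 (2.46%, 1.58 to 3.64) and 4 of 263 (1.52%, 0.416 to 3.85). Blood EC-like cells had the higher share in each library, and in each the intervals of blood EC-like and other cells overlapped. Unthinned shares of cells were 0.931% and 0.592% in the control library, 0.565% and 0.298% in replicate 1, and 5.23% and 4.56% in replicate 2.

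Among the other classes, 3 of 2488 fibroblast-like cells of the control library held a UMI (0.121%, 0.0249 to 0.352), as did 2 of 127 lymphatic EC-like cells (1.57%, 0.191 to 5.57) and 2 of 91 pericyte and smooth muscle-like cells (2.20%, 0.267 to 7.71) of replicate 2. A small cluster of other immune cells held none. The naming rule gave it to the lymphocyte list. That name is not used here, because the basophil and mast cell genes Prss34 and Mcpt8 led it beside the immunoglobulin gene Igkc. It had 18 control cells and 30 cells of replicate 1, which allows shares of up to 16.7% and 10.0% (3 counts), and 3 cells of replicate 2. Its median depths were 1471 and 4177.5 UMIs in the control library and replicate 1, against 2135.5 and 3097 UMIs in blood EC-like cells. The counts of blood EC-like cells include the 5 control cells and the 1 cell of replicate 1 above 100 haemoglobin UMIs, and blood EC-like cells did not stand apart from all other cells beyond the intervals even so. No expression by EC and no difference between classes is read from these shares.

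**Figure D4:**
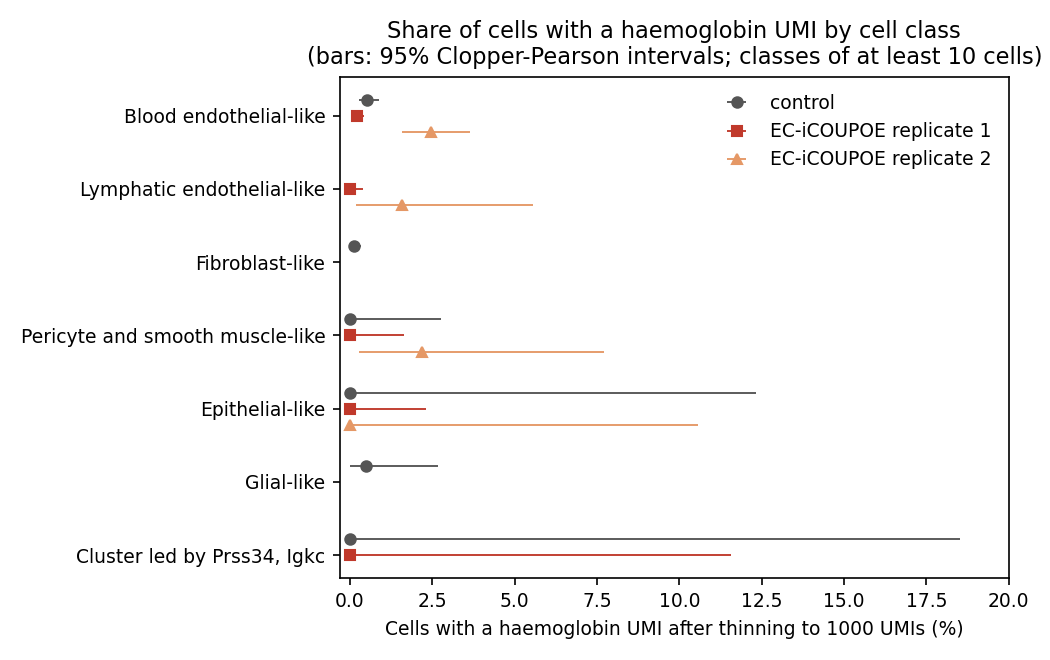
Percentage of cells with a haemoglobin UMI after each cell was thinned to 1000 UMIs (horizontal axis) by cell class (vertical axis) and library, for classes of at least 10 cells, with 95% Clopper-Pearson intervals. Replicate 2 lies highest in blood EC-like cells (2.46%), and the intervals of its lymphatic EC-like (1.57%) and pericyte and smooth muscle-like cells (2.20%) overlap that of blood EC-like cells.

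In blood EC-like cells all 4 genes stood lower in both EC-iCOUPOE libraries than in the control library. Hbb-bs had 4553 UMIs (574 CPM) in the control library, 615 (49.6 CPM) in replicate 1 and 50 (21.2 CPM) in replicate 2. The log2 ratio to the control library was −3.53 (−3.66 to −3.41) in replicate 1 and −4.76 (−5.19 to −4.36) in replicate 2, with a mean of −4.14 ± 0.87 (SD, n = 2). Hbb-bt had 858 UMIs (108 CPM), 9 (0.727 CPM) and 10 (4.25 CPM), with log2 ratios of −7.22 (−8.35 to −6.29) and −4.67 (−5.74 to −3.78) and a mean of −5.94 ± 1.80 (SD, n = 2). The mean log2 ratio was −4.81 ± 0.13 for Hba-a1 and −4.85 ± 0.02 for Hba-a2 (SD, n = 2). All 4 were past the rule of at least 2-fold lower in both EC-iCOUPOE libraries, as were 256 of the 10086 genes that had at least 50 UMIs in a library (2.54%). By the same rule 426 genes (4.22%) and 0 members were higher. The members were chosen for this pattern, and nothing is read from either count. The median log2 ratio of all genes tested was 0.14 in replicate 1 and 0.02 in replicate 2.

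These ratios rested on 6 cells. Among them, the control cells with 2834 and 666 haemoglobin UMIs reached the filter of 1000 UMIs only through those UMIs. The 5 control cells with 398 to 2834 haemoglobin UMIs held all but 33 of the 9382 haemoglobin UMIs in control blood EC-like cells, and 1 cell of replicate 1 held 820 of 851. Without them the 4 genes together stood at 4.17 CPM in the control library (33 UMIs), 2.50 CPM in replicate 1 (31 UMIs) and 42.5 CPM in replicate 2 (100 UMIs). The log2 ratio to the control library was then −0.74 (−1.49 to 0.02) in replicate 1 and 3.35 (2.77 to 3.96) in replicate 2, so that the direction turned in replicate 2 and the interval of replicate 1 reached 0. In replicate 2, 50 of the 100 UMIs came from 2 cells with 36 and 14. Over all barcodes, where the 8 barcodes with few genes are included, the ratio was −2.88 (−2.95 to −2.81) in replicate 1 and 1.91 (1.87 to 1.95) in replicate 2. Fewer haemoglobin-rich barcodes and less haemoglobin RNA per cell cannot be told apart in such sums.

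**Figure D5:**
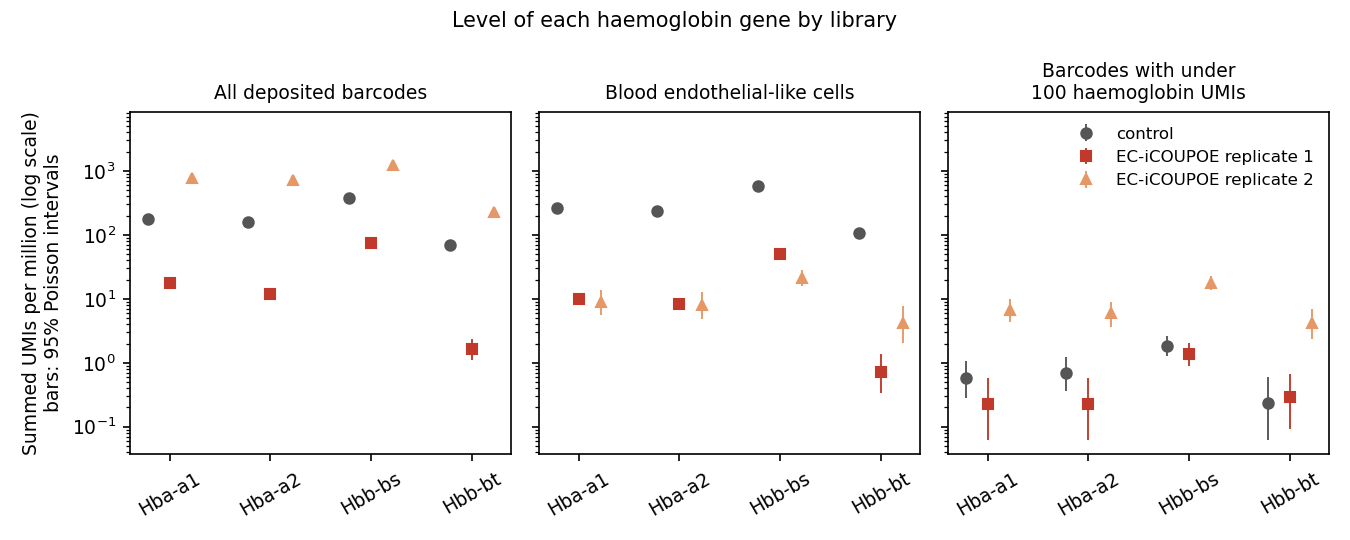
Summed UMIs of each haemoglobin gene per 1000000 UMIs (vertical axis, log scale) in the 3 libraries, with 95% Poisson intervals, over all barcodes (left), blood EC-like cells (middle) and barcodes with under 100 haemoglobin UMIs (right). The order of the libraries differs between panels, with replicate 2 highest on the left and right and the control library highest in the middle.

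The haemoglobin genes led clusters of blood EC in the same way. Among 13 clusters of blood EC-like cells, the 4 genes were among the 10 leading genes by fold in 2, both named capillary-like. The name of cluster 9 is weak. Its capillary list stood 0.23 (mean log2) above the other clusters, against 1.304 in cluster 5. Rsad2, Ifit3b, Ifi206 and Ifit2 were also among the 10 leading genes of cluster 9. In cluster 5 the control library had 438 cells with 2797 haemoglobin UMIs, of which 1 cell held 2794, while the 42 cells of replicate 1 and 25 of replicate 2 held 0. In cluster 9 the 27 control cells held 2834, all in 1 cell, and the 330 cells of replicate 1 held 4 and the 46 of replicate 2 held 2. Without that cell control cluster 5 stood at 4.75 CPM (0.979 to 13.9), and replicate 1 stood at 4.79 CPM (1.30 to 12.3) in cluster 9. These intervals hold the values of all blood EC-like cells of the same library under 100 haemoglobin UMIs, 4.17 and 2.50 CPM. By subset, the control library stood at 4089 CPM in capillary-like, 1921 CPM in postcapillary venule-like, 731 CPM in arterial-like, 37.3 CPM in capillary resident progenitor-like and 3.41 CPM in high endothelial-like cells. Without the 5 cells above 100 UMIs the first 3 values were 2.05 CPM (0.422 to 5.98), 0.725 CPM (0.0184 to 4.04) and 3.28 CPM (0.677 to 9.60). The capillary resident progenitor-like cells held none of the 5 and were then the highest, at 37.3 CPM (19.9 to 63.9), with 12 of their 13 haemoglobin UMIs in 1 cell. The order of subsets thus changed when 5 cells were left out, and the next order rested on 1 further cell.

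Genes of red cells were looked at in the same barcodes, from a list of 36 of which 34 were measured. In the 8 barcodes with few genes, 11 of the 34 were detected and made up 75 of the 434 UMIs outside the 4 genes (17.3%). The barcode of replicate 2 with 7632 haemoglobin UMIs gave 40 of the 75, and the lowest barcode gave 0. In the 6 barcodes with many genes, 12 were detected and made up 76 of 10514 UMIs (0.723%), against 0.0555% in the blood EC-like cells with under 100 haemoglobin UMIs. The control barcode with 2657 haemoglobin UMIs gave 35 of the 76. Alas2, the erythroid form of the first enzyme of haem synthesis, led the few-gene barcodes with 27 UMIs in 6 of 8. Of these 27, 15 were in the barcode with 7632 haemoglobin UMIs. Alas2 had 23 UMIs in 5 of the 6 many-gene barcodes and 0 in other blood EC-like cells of every library. Of its 52 UMIs in all, 50 were in 11 of the 14 high barcodes.

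Other members of that list are also used by EC and separate the barcodes less. Ube2l6 had 14 UMIs in the few-gene barcodes and 11 in the many-gene barcodes, and Mkrn1 had 9 and 10. Bpgm, which makes the red cell metabolite 2,3-bisphosphoglycerate, had 4 and 6. The anion exchanger gene Slc4a1 and the membrane protein gene Epb42 had 0 UMIs in all 3 libraries. The erythroid factor genes Gata1 and Klf1 had 1 and 5 UMIs in all, of which 1 of Klf1 was in a few-gene barcode.

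Alas2 was counted in 2 of the 3 libraries, with little depth. The control library had 2.43 Alas2 UMIs per 1000 haemoglobin UMIs (1.68 to 3.42), replicate 2 had 1.82 (1.10 to 2.85) and replicate 1 had 0 in 1847 (upper bound 1.997). The 3 intervals overlap. All 9 barcodes with Hbb-bt at 12.7% or more held Alas2, with 48 UMIs and 2.24 per 1000 (1.65 to 2.97). The 5 barcodes with less Hbb-bt held 2 Alas2 UMIs, or 0.480 per 1000 (0.0582 to 1.73), and the intervals overlap narrowly. The barcodes were split by Hbb-bt after their shares were seen, and what accompanies the split was not tested further.

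The remaining lists showed how little else the few-gene barcodes held. Of the 9 genes of haem synthesis, which were all measured, Alas2 and the last enzyme, Fech (2 UMIs in few-gene and 7 in many-gene barcodes), were detected in the 14 barcodes, and the other 7 were at 0 there. Of 13 genes for uptake and breakdown of haemoglobin and haem, the ferritin genes Ftl1 (11 UMIs) and Fth1 (5 UMIs) were the ones detected in few-gene barcodes. Without the 4 genes, Ftl1 stood there at 25346 CPM (12652 to 45350), from 4 barcodes, against 845 CPM in other blood EC-like cells. Fth1 stood at 11521 CPM (3741 to 26886) against 3465 CPM, and Fech at 4608 CPM (558 to 16647) against 19.1 CPM, each from 1 few-gene barcode. Cd163, the macrophage receptor for haemoglobin bound to haptoglobin, had 0 UMIs in all libraries. Hmox1, which opens the haem ring, was measured at 22.5, 27.6 and 26.8 CPM in other blood EC-like cells of the control library, replicate 1 and replicate 2, and had 0 UMIs in the 14 barcodes. The upper bounds at 0 UMIs were 8499.7 CPM in the few-gene and 350.85 CPM in the many-gene barcodes, so no contrast is read from the 0 counts.

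The partners described for alpha globin in EC were measured in blood EC-like cells and had 0 UMIs in the few-gene barcodes. Those barcodes held 434 UMIs outside the 4 genes, so a gene at 0 there could stand at up to 8499.7 CPM. This bound lies above each partner's level in other blood EC-like cells, and nothing is read from the 0 counts. Nos3 stood at 53.3, 39.2 and 43.3 CPM in other blood EC-like cells of the control library, replicate 1 and replicate 2, and Cyb5r3 at 205, 254 and 194 CPM. The 5 listed genes made up 0.152% of the UMIs outside the 4 genes in the many-gene barcodes and 0.143% in other blood EC-like cells. Platelet genes had 0 UMIs in the 14 barcodes. Of 13 other globin genes 10 were measured, and the embryonic genes Hbb-bh1 and Hba-x had 0 UMIs in all libraries, Hbb-y had 1 and Hbq1a had 1. Cygb (cytoglobin) had 7457, 305 and 34 UMIs in the 3 libraries and 0 in the 14 barcodes. At the depth of these barcodes, 0 UMIs of Cygb or of the platelet genes does not set them apart from other blood EC-like cells. Hbb-b1 and Hbb-b2 were not among the genes used here.

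Other genes with enough UMIs were ranked by how they followed haemoglobin across kept cells. Pearson correlations of log2 values with the summed 4 genes were taken over 5341, 4704 and 1239 cells for 6783 genes with at least 50 UMIs in every library, and 0 reached 0.1 in all 3. The highest by the smallest of the 3 correlations were Pnpla6 (0.040), Endou (0.034), Ncoa4 (0.032), Kctd12b (0.030) and Arl15 (0.029), all weak. Cells of 1 library share their depth and their free RNA. Alas2 was too sparse to enter this ranking, with 23 UMIs in 5 of the 6 many-gene barcodes and 0 in other blood EC-like cells. The members themselves were correlated with each other at 0.92 to 0.97 in the control library, 0.74 to 0.89 in replicate 1 and 0.25 to 0.50 in replicate 2, where no kept cell had more than 36 haemoglobin UMIs. A rule over all 3 libraries was therefore hard to meet, and no absence of such genes is read from it. Of the 13 kept control cells with Hba-a1, 6 also held Hba-a2 and 7 also held Hbb-bt.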

How the data were processed

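Droplet 3′ libraries of PP EC (1 control, 2 EC-iCOUPOE) were used. The authors made the deposited UMI counts per gene and barcode with Cell Ranger 3.0.2 (submitters' processing notes) on mm10 and kept called cells. The header of replicate 1 names version 3.1.0. How reads matching near copies were counted is not given in the sources used here. The values are raw counts, with every barcode at 500 UMIs or more.

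Counts were read with Python 3.11.15. Barcodes under 500 genes, under 1000 UMIs (haemoglobin included) or over 10% mitochondrial UMIs were left out, and doublets were removed with Scrublet (scanpy 1.11.5, 6% expected). Libraries were integrated in Seurat 5.3.0 (2000 variable genes without the members, 30 components, 20 neighbours, Louvain resolution 1), and blood EC-like cells were clustered again. Each cluster took the name of the marker list that stood highest against other cells (mean log2 CPM, 10 CPM added). UMIs were summed per library and population. Ratios have exact conditional binomial intervals, and a count of 0 was set at 3 UMIs. With 1 control library no test was made. Genes were called past 2-fold in both EC-iCOUPOE libraries, without sex-linked genes, and the rule was tested on simulated data. TMM factors came from edgeR 4.0.16. The text names the 4 members, list genes chosen for their role and the 5 genes most alike. The members and all lists were chosen with earlier results of these data known. Coordinates and sequences come from GENCODE vM21 and RefSeq, the same assembly as mm10.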

Additional observations from a re-analysis of the deposited data

How the results depend on the processing

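No paired analysis was possible because the control group is 1 library. The mean log2 ratios in blood EC-like cells reversed without the 10 highest cells of each library, to 0.97 for Hba-a1, 0.63 for Hba-a2 and 1.23 for Hbb-bs. They rested then on 2 to 25 UMIs a library, and Hbb-bt was left with too few for a value. Without the cells of 100 or more haemoglobin UMIs, a setting chosen after seeing the data, they were 1.22, 0.87, 1.36 and 1.63 for Hbb-bt. The reversal came from replicate 2, since the 4 genes summed without those cells gave −0.74 in replicate 1 and 3.35 in replicate 2. For Hba-a2 (−4.85), whose replicates differed by little, TMM scaling gave −4.96, doublets kept −4.81 and resolution 1.6 −4.88. No ratio changed sign under these settings, at resolution 0.6 or with either EC-iCOUPOE library left out. The Hbb-bt share without the 10 highest cells was 5.0% in the control library and 11.1% in replicate 1, from 20 and 9 beta UMIs, and the alpha share was 33.3% and 30.8%. Over all barcodes the alpha share was 43.5% in the control library and 50.7% in replicate 2. The 10 highest barcodes held 99.7%, 98.5% and 53.9% of the haemoglobin UMIs of kept cells, and 99.4% over all barcodes of replicate 2. Thinning to 2000 UMIs gave shares of cells of 0.408% in replicate 1 and 3.87% in replicate 2, and to 500 UMIs 1.13% in replicate 2. The 426 genes higher and 256 lower by the 2-fold rule became 726 and 383 both at a minimum of 10 UMIs and with no filter, and 359 and 294 with TMM scaling. With 1 EC-iCOUPOE library left out in turn 794 to 890 were higher and 494 to 661 lower, since 1 library is easier to pass than 2. The depth of 72 beta UMIs in kept cells of replicate 2 limits its Hbb-bt share.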
